A study of Mus musculus with 4 samples.

Results

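The 40 genes described here drive the cell cycle and DNA replication, and they were taken by name: Mki67, Top2a, Pcna, the Mcm helicase genes, the cyclins and their kinases, the aurora and polo kinases, and the genes that guard and trigger the separation of chromosomes. All 40 were found, each on 1 row, among the 44509 gene symbols of the table, and all 40 passed the filter on low values. They were divided by role into 10 replication genes, 8 genes of the step from G1 to S phase, 18 mitotic genes and 4 meiotic genes (Ccna1, Ccnb3, Aurkc and Cdc25c). RNA had been sequenced from testis tissue of mice with oligozoospermia, a low sperm number, brought about by busulfan, an alkylating drug toxic to germ cells that divide. In 2 libraries (busulfan 1 and 2) the mice had the busulfan model alone, and in 2 (Cus-1 1 and 2) the model had also been treated with Cus-1, named in the series title as a resin glycoside from cuscutae extract. Both groups had therefore received busulfan, and no testis without it was analysed here. Strain, age, dose and time are not in the sources used here. Nor is it said whether each sample came from its own animal, so every p-value measures just the spread among the samples at hand, and that spread may be technical. Group membership rests on the source label, since sample titles begin with BPA in the busulfan group and with CUS2 in the treated group, and neither term is explained.

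A cell enters division when D cyclins with Cdk4, and then E cyclins with Cdk2, release the genes of S phase. The Mcm proteins form the helicase that opens DNA at origins, Pcna is the clamp that holds polymerases on it, and ribonucleotide reductase (Rrm1, Rrm2) and thymidylate synthase (Tyms) supply the nucleotides. A and B cyclins with Cdk1 then drive mitosis, until Cdc20 turns on the ubiquitin ligase that removes securin (Pttg1) and frees separase (Espl1) to part the chromatids. In the testis, spermatogonia multiply by mitosis, early spermatocytes copy their DNA once more, and later spermatocytes use many of the same G2 and M phase genes for the meiotic divisions. Cyclin A1 (Ccna1), cyclin B3 (Ccnb3) and aurora C (Aurkc) are the germ cell relatives of more widely expressed proteins.

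Promoter windows are shown because mitotic and replication genes are known to carry different short elements upstream of their start. Of the 40 genes, 33 had a RefSeq window (build GRCm38.p6, 250 bases before to 50 after the annotated start). Both strands were searched for the CHR element (TTTGAA), the CCAAT box (CCAAT) and an E2F site (TTTCCCGC, TTTCGCGC, TTTGCCGC or TTTGGCGC). Capitals mark every match, on either strand, and neighbouring capitals in Mcm5 and Mcm6 are overlapping E2F matches. Mcm7 and Ccnd3 had 2 windows each, and a match in either was counted. In 1 window of Mcm7 matches to different motifs overlapped.
Ccnb2 chr9:70421505-70421804 (minus strand): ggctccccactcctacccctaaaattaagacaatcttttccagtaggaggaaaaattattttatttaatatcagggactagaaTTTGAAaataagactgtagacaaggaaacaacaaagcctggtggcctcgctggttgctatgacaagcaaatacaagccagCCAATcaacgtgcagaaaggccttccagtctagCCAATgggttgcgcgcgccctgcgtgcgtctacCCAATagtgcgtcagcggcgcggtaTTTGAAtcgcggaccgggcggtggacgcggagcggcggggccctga
Cdc20 chr4:118437294-118437593 (minus strand): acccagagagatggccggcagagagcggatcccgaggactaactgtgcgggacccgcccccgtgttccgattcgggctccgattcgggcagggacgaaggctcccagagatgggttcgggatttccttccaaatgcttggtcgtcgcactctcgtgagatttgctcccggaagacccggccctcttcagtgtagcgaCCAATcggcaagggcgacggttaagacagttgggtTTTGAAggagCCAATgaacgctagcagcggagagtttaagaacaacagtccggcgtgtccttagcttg
Cdk1 chr10:69352863-69353162 (minus strand): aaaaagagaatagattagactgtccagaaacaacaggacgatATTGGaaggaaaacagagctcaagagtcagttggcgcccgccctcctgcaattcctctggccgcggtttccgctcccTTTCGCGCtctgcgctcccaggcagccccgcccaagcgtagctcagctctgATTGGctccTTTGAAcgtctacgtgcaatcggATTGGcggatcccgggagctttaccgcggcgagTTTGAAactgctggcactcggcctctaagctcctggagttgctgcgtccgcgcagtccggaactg
Mcm5 chr8:75109259-75109558 (plus strand): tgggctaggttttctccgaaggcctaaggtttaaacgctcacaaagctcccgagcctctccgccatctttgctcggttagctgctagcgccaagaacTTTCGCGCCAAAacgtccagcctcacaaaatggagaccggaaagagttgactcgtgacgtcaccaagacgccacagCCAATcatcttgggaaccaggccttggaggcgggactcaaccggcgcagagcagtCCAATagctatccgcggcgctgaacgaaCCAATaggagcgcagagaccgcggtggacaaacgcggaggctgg
Mcm6 chr1:128359656-128359955 (minus strand): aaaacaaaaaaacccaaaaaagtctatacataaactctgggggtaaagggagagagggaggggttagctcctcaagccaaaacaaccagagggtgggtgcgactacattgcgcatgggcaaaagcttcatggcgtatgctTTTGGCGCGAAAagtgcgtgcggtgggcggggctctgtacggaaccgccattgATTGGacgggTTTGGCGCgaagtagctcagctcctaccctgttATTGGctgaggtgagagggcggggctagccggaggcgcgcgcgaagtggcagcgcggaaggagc
Aurkc chr7:6995135-6995434 (plus strand): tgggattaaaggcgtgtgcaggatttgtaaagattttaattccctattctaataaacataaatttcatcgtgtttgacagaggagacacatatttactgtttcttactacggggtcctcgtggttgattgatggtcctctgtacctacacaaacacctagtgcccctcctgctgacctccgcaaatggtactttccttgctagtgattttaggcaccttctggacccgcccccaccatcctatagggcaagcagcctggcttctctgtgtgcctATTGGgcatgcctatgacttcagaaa
Among genes with a searched window, a CHR match stood in 10 of 16 mitotic (62.5%), 1 of 9 replication (11.1%) and 0 of 3 meiotic genes (Ccna1, Ccnb3 and Aurkc). The background, which counts each window rather than each gene, was 13.3% of the 16185 windows of tested genes and 17.9% of all 32851 windows searched. All 10 of those mitotic genes also held a CCAAT box in the same window, a combination found in 5.48% of the windows of tested genes. The CCAAT box was not particular to mitotic genes. With or without CHR, it stood in 8 of 9 replication, 13 of 16 mitotic, 3 of 5 G1/S and 2 of 3 meiotic genes. Its background was 38.1% of the windows of tested genes. E2F matches stood in 4 of 9 replication genes (44.4%), 2 of 5 G1/S genes and 1 of 16 mitotic genes (6.25%), against 3.53% of the windows of tested genes. Ccnb2 and Cdc20 carried CHR and CCAAT matches without E2F, Mcm5 and Mcm6 carried E2F and CCAAT matches without CHR, and Cdk1 carried all of these. In Aurkc the only match was a CCAAT box after the start. A match describes these letters and does not show that a factor binds there.

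In most mitotic genes and all 4 meiotic genes each Cus-1 library lay above each busulfan library, replication genes lay higher by less, and genes of the D cyclin step lay near or below their busulfan level. The median log2 fold change (Cus-1 minus busulfan, on log2(FPKM + 1)) was 0.69 for mitotic genes, 0.67 for meiotic genes, 0.39 for replication genes and -0.03 for G1/S genes, against 0.04 for all 19837 tested genes. No gene passed the limma adjusted threshold of 0.05, which called 0 of the 40 and 0.0% of all tested genes. At an unadjusted limma p under 0.05, 16 of the 40 were higher (background 18.0% of tested genes) and 1 was lower (background 9.96%). The 2 groups did not overlap in 28 genes that were higher with Cus-1 (background 36.6%) and in 4 that were lower (background 31.7%). These directions are relative to the FPKM scaling. Each library was also centred on spermatocyte markers. At an unadjusted limma p under 0.05, 0 of the 40 were higher and 4 lower there, against 59 and 8018 of all 19837 tested genes. The median log2 fold change was then -0.82 for all tested genes, -0.17 for mitotic, -0.20 for meiotic, -0.47 for replication and -0.90 for G1/S genes. By role and without centring, 15 of 18 mitotic, 4 of 4 meiotic, 6 of 10 replication and 3 of 8 G1/S genes were higher without overlap. Because the tissue was whole testis, more cells of a dividing type and more RNA per cell cannot be told apart. With 1 library left out, the mitotic median ran from 0.43 without busulfan 1 to 0.99 without busulfan 2, against 0.03 to 0.06 for all tested genes. At an unadjusted limma p under 0.05, 3576 of all tested genes were higher and 1975 lower without centring. Under quantile normalization these were 2841 and 2690, and 12 of the 40 were higher and 1 lower.

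**Figure D1:**
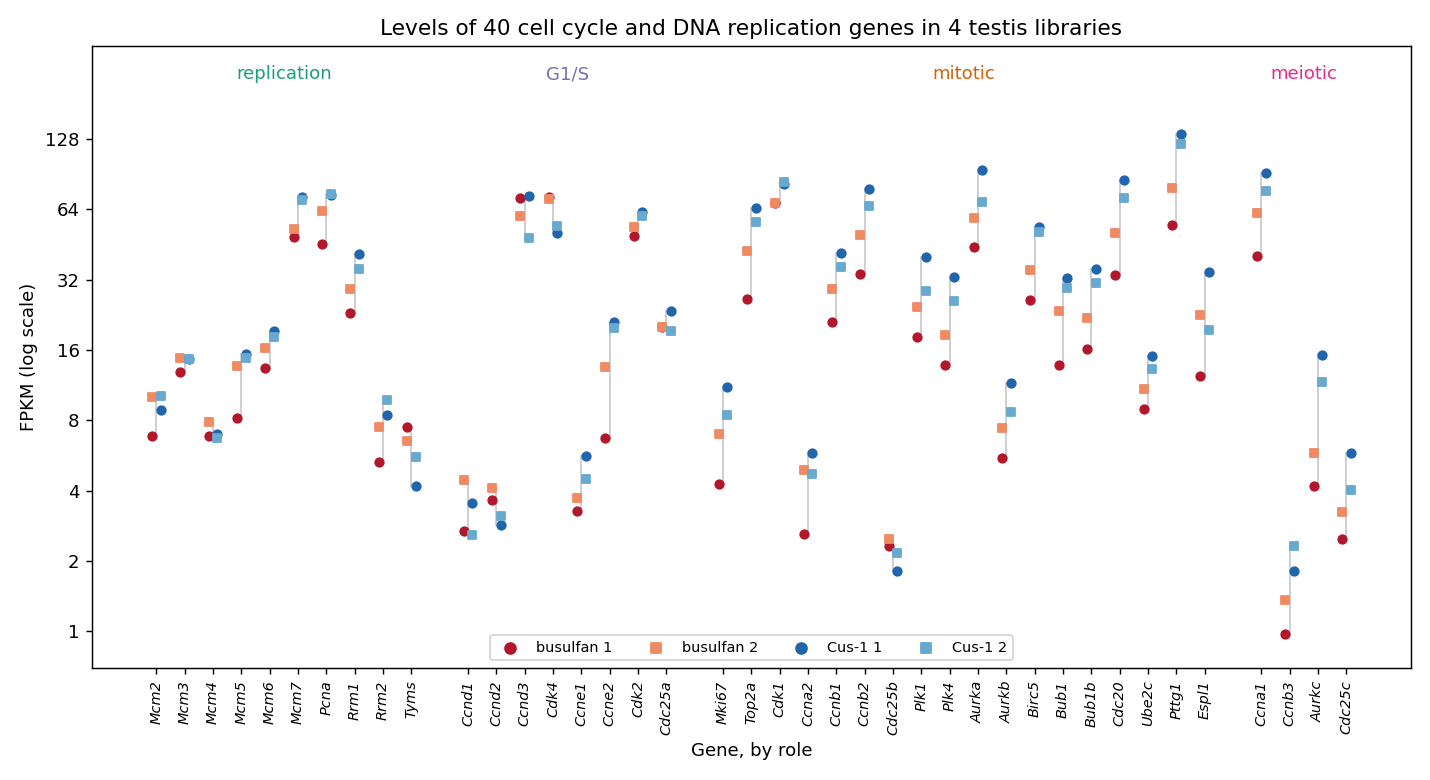
FPKM (log scale) of each of the 40 genes in the 4 libraries, by role; red and orange points are busulfan 1 and 2, dark and light blue points are Cus-1 1 and 2, and grey lines span the 4 values. Blue points lie above both busulfan points in 15 of 18 mitotic and 4 of 4 meiotic genes, and below both in Tyms, Ccnd2, Cdk4 and Cdc25b.

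Pttg1, which encodes securin (chromosome 11, 43420250 to 43426251, mm10), was the most abundant of the 40 with Cus-1 and had the largest difference among the mitotic genes. It was at 54.9 and 79.2 FPKM in busulfan testes against 134 and 122 FPKM in treated testes (log2 fold change 0.94, SE 0.22, limma adjusted p = 0.152). Cdc20, which targets securin for destruction, was at 33.4 and 50.7 FPKM in busulfan testes against 85.0 and 71.8 in treated testes. Its log2 fold change was 0.91 (SE 0.24), and both Cus-1 libraries stood clear of the higher busulfan library. Espl1, the separase that securin holds back, was at 12.4 and 22.6 FPKM in busulfan testes against 34.4 and 19.4 in treated testes, so the groups overlapped (log2 fold change 0.59, SE 0.39). Ube2c, the ubiquitin-conjugating enzyme of the same ligase, was at 8.91 and 10.9 FPKM against 15.04 and 13.2, a difference in log2 of 0.48 (SE 0.19).

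Ccnb1 and Ccnb2, B cyclins that activate Cdk1, followed the same order of libraries. Ccnb2 was at 33.8 and 49.6 FPKM in busulfan testes against 78.5 and 65.8 in treated testes (log2 fold change 0.80, SE 0.23, limma adjusted p = 0.152). Ccnb1 stood at a lower level, at 21.1 and 29.2 against 41.6 and 36.4 FPKM (log2 fold change 0.63, SE 0.21). In both genes busulfan 1 was lowest, busulfan 2 next and Cus-1 1 highest. Their kinase Cdk1 differed less, at 68.3 FPKM in each busulfan library and at 82.5 and 83.7 FPKM with Cus-1, a log2 fold change of 0.28 (SE 0.13). Within each group the 2 Cdk1 values were almost the same, which was not so for the cyclins. Ccna2, the cyclin A of dividing somatic and germ cells, was low and overlapped, at 2.60 and 4.91 FPKM in busulfan testes against 5.79 and 4.73 in treated testes. Cdc25b, a phosphatase that activates Cdk1, was the 1 mitotic gene below its busulfan level, at 2.31 and 2.48 against 1.82 and 2.17 FPKM (log2 fold change -0.18, SE 0.23).

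The mitotic kinases and checkpoint genes lay higher with Cus-1 without overlap. Aurka, the kinase of spindle poles, was at 44.3 and 58.5 FPKM in busulfan testes against 94.5 and 68.9 in treated testes. Aurkb, the kinase of the chromosomal passenger complex, was at 5.55 and 7.44 against 11.6 and 8.70 FPKM, far below Aurka on this length-adjusted scale. Birc5 (survivin), a partner of Aurkb in that complex, was at 26.1 and 35.1 FPKM in busulfan testes against 53.7 and 51.0 in treated testes (log2 fold change 0.77, SE 0.19). Plk4, which starts centriole duplication, was at 13.9 and 18.6 against 33.0 and 26.0 FPKM (log2 fold change 0.83, SE 0.22). Plk1, the main mitotic polo kinase, was at 18.1 and 24.6 against 40.2 and 28.7 FPKM (log2 fold change 0.66, SE 0.25). The spindle checkpoint kinase gene Bub1 was at 13.8 and 23.4 against 32.6 and 29.3 FPKM, and its relative Bub1b was at 16.2 and 21.9 against 35.6 and 30.9. Top2a, the topoisomerase that untangles chromosomes, was at 26.5 and 42.4 FPKM in busulfan testes against 65.0 and 56.3 in treated testes (log2 fold change 0.83, SE 0.26). Mki67, the usual proliferation marker, was at only 4.28 and 7.02 against 11.1 and 8.46 FPKM (log2 fold change 0.72, SE 0.29). For Aurka, Aurkb, Plk1 and Mki67 the value in Cus-1 2 stood closer to busulfan 2 than to Cus-1 1.

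**Figure D2:**
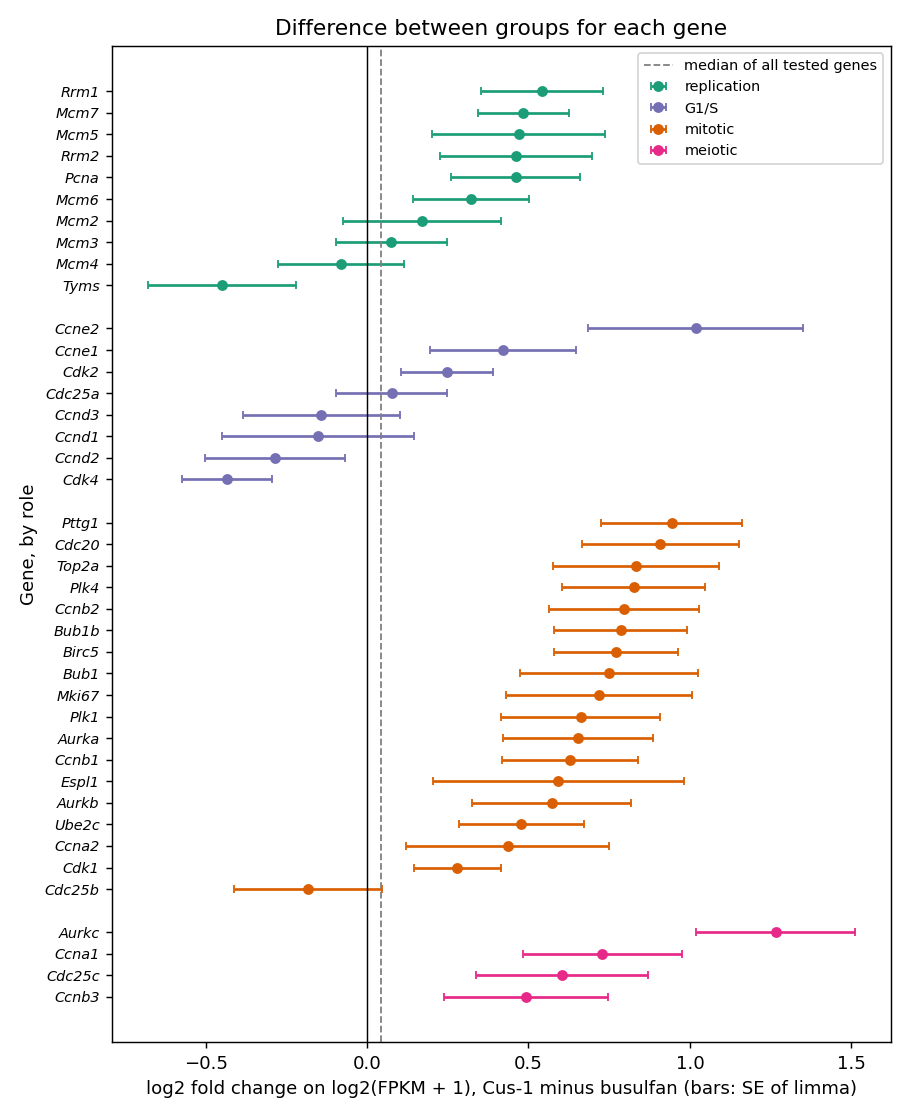
Log2 fold change of each gene on log2(FPKM + 1), Cus-1 minus busulfan, with bars of 1 SE from limma; colours give the role and the dashed line the median of all tested genes (0.04). Mitotic and meiotic genes lie between 0.28 and 1.27 apart from Cdc25b at -0.18, while Tyms (-0.45) and Cdk4 (-0.44) lie lowest.

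The 4 meiotic genes had no overlap between groups, and Aurkc (chromosome 7, 6995300 to 7003091, mm10) had the largest difference of the 40. Aurkc was at 4.20 and 5.83 FPKM in busulfan testes against 15.2 and 11.7 in treated testes, or 2.68 times the busulfan mean (log2 fold change 1.27, SE 0.25, limma adjusted p = 0.152). Leaving out any 1 library kept its log2 fold change between 1.07 and 1.46. The row for its pseudogene Aurkc-ps was at 0.08 FPKM or less in each library. Ccna1 was by far the most abundant meiotic gene, at 40.5 and 61.8 FPKM in busulfan testes against 91.7 and 76.3 in treated testes (log2 fold change 0.73, SE 0.25). Cdc25c, a phosphatase that activates Cdk1 and is abundant in male germ cells, was at 2.48 and 3.26 against 5.79 and 4.04 FPKM (log2 fold change 0.60, SE 0.27). Ccnb3 had the lowest mean level of the 40, at 0.98 and 1.37 against 1.81 and 2.31 FPKM (log2 fold change 0.49, SE 0.25), where adding 1 to each value shrinks the difference.

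Plain ratios of FPKM between relatives within a library do not depend on how that library was scaled as a whole. Aurkc stood at 0.757 and 0.784 of the Aurkb level with busulfan against 1.31 and 1.34 times that level with Cus-1, so their order turned. Against Aurka, Aurkc stood at 0.0948 and 0.0997 of its level with busulfan against 0.161 and 0.169 with Cus-1. In both pairs the 2 libraries of a group were close together and the groups were apart. Ccna1 exceeded Ccna2 by 15.6 and 12.6 times with busulfan and by 15.8 and 16.1 times with Cus-1, with busulfan 2 lowest. Cdc25c stood at 1.07 and 1.32 times Cdc25b with busulfan against 3.18 and 1.86 times with Cus-1. Against Cdc25a, Cdc25c stood at 0.124 and 0.162 of its level with busulfan against 0.248 and 0.210 with Cus-1. Ccnb3 stood at 0.0465 and 0.0469 of Ccnb1 with busulfan against 0.0435 and 0.0635 with Cus-1, with overlap. An exact two-sided permutation test of 2 libraries against 2 cannot go below 0.333, and gave 0.333 for the 5 pairs without overlap on the log2 scale with 1 added (0.400 adjusted over the 6 pairs) and 0.667 for Ccnb3 over Ccnb1. That scale, unlike the plain ratio, moves somewhat with the scaling of a library. On it the difference was 0.69 for Aurkc over Aurkb and 0.61 for Aurkc over Aurka, and without any 1 library it stayed between 0.68 and 0.71 and between 0.57 and 0.66. With no pseudocount, a choice made after seeing the data, the differences in log2 were 0.78 and 0.76, and the difference for Ccnb3 over Ccnb1 turned from -0.13 to 0.17.

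**Figure D3:**
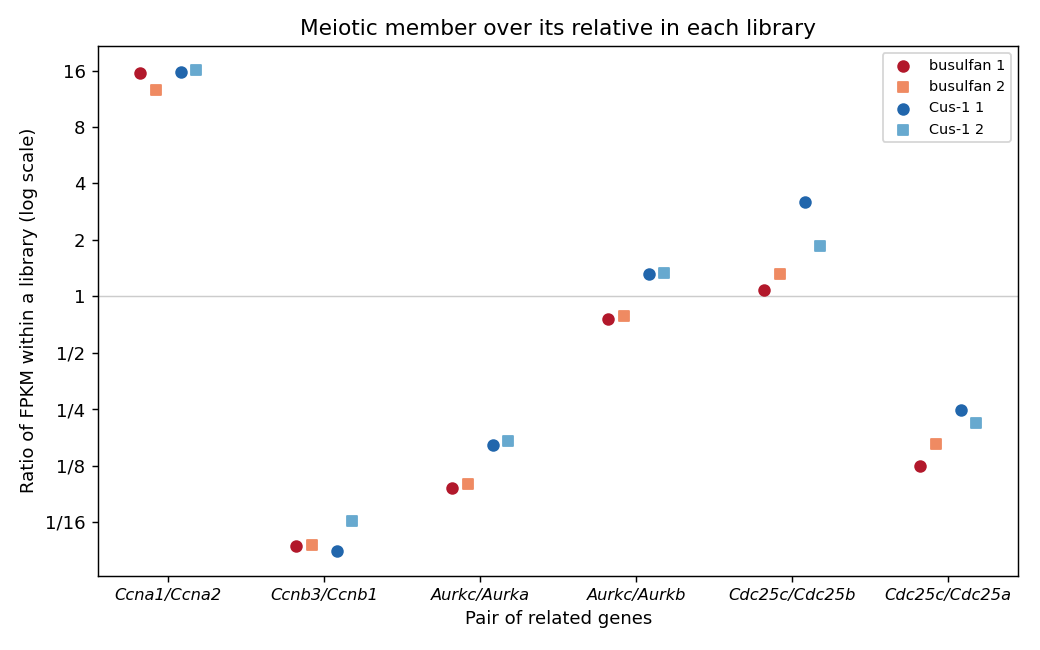
Ratio of FPKM (log scale) of a meiotic gene to its relative within each library, for 6 pairs; colours and shapes give the library as named in the key. Aurkc over Aurkb lies at 0.757 and 0.784 with busulfan against 1.31 and 1.34 with Cus-1, while Ccnb3 over Ccnb1 overlaps between the groups.

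Replication genes differed less, and the Mcm helicase genes differed unequally. Mcm7 was the most abundant, at 48.5 and 52.7 FPKM in busulfan testes against 72.1 and 70.1 in treated testes (log2 fold change 0.48, SE 0.14, limma adjusted p = 0.152). The other Mcm genes were between 6.72 and 19.3 FPKM in each library. Mcm5 was at 8.23 and 13.6 against 15.3 and 14.8 FPKM, and Mcm6 at 13.4 and 16.3 against 19.3 and 18.1, both without overlap. Mcm2, Mcm3 and Mcm4 overlapped between the groups, with log2 fold changes of 0.17 (SE 0.24), 0.08 (SE 0.17) and -0.08 (SE 0.19). Mcm2 and Mcm3 turned to -0.08 and -0.02 without busulfan 1, and Mcm4 to 0.01 without busulfan 2.

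The clamp gene Pcna was at 45.5 and 63.1 FPKM in busulfan testes against 74.0 and 74.2 in treated testes (log2 fold change 0.46, SE 0.20). Its value is uncertain, because the table also lists the copy Pcna-ps2 at 31.0, 38.4, 48.5 and 51.0 FPKM in the 4 libraries, and fragments could be split between them. Rrm1, the large subunit of ribonucleotide reductase, was at 23.0 and 29.2 against 41.2 and 35.4 FPKM (log2 fold change 0.54, SE 0.19). The small subunit gene Rrm2 was at 5.33 and 7.5 against 8.44 and 9.81 FPKM (log2 fold change 0.46, SE 0.24). Tyms went the other way, at 7.53 and 6.51 FPKM in busulfan testes against 4.20 and 5.6 in treated testes, with no overlap (log2 fold change -0.45, SE 0.23). The replication median was 0.16 without busulfan 1.

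The genes of the G1/S step split between E cyclins and D cyclins. Ccne2, whose span shares bases with Ints8, was at 6.70 and 13.6 FPKM in busulfan testes against 21.0 and 19.9 in treated testes (log2 fold change 1.02, SE 0.33, limma adjusted p = 0.159). The 2 busulfan values of Ccne2 lay nearly as far apart as the groups did, and the log2 fold change was 0.56 without busulfan 1 and 1.48 without busulfan 2. Ccne1 was at 3.29 and 3.71 against 5.62 and 4.47 FPKM (log2 fold change 0.42, SE 0.23), and their kinase Cdk2 at 49.1 and 53.7 against 62.2 and 60.2 FPKM (log2 fold change 0.25, SE 0.14). Cdk4, the D cyclin kinase (chromosome 10, 127063534 to 127067920, mm10, sharing bases with Tspan31), was at 71.9 and 70.8 FPKM in busulfan testes against 50.6 and 54.6 in treated testes (log2 fold change -0.44, SE 0.14, limma adjusted p = 0.157), the 1 gene of the 40 lower at an unadjusted p under 0.05. That difference was close to the same without any 1 library, from -0.49 to -0.38. Ccnd2, a D cyclin of differentiating spermatogonia, was at 3.64 and 4.09 against 2.85 and 3.13 FPKM (log2 fold change -0.29, SE 0.22). Ccnd1 was at 2.70 and 4.44 against 3.56 and 2.58 FPKM, with overlap. Ccnd3 was the abundant D cyclin, at 71.5 and 59.8 against 72.7 and 48.1 FPKM, also with overlap. Cdc25a, which activates Cdk2, was at 20.1 FPKM in each busulfan library and at 23.4 and 19.2 with Cus-1. The signs for Ccnd1, Ccnd3 and Cdc25a turned when 1 library was left out. Centring each library on Sertoli genes, which moved the median of all tested genes to 0.71, put all 7 genes with a negative value above 0, so each direction here is relative to all genes.

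The libraries within a group also kept a common order. Busulfan 2 exceeded busulfan 1 in 37 of the 40 genes (background 53.3%), and in 18 of 18 mitotic genes by a median of 0.44 in log2. Cus-1 1 exceeded Cus-1 2 in 31 of the 40 (background 51.2%), and in 16 of 18 mitotic genes by a median of 0.22. In either direction, the size of the log2 fold change exceeded both within-group differences in 16 of 18 mitotic and 4 of 4 meiotic genes. It did so in 5 of 8 G1/S and 5 of 10 replication genes, and in 53.8% of all tested genes. These counts include Tyms, Ccnd2, Cdk4 and Cdc25b, which were lower with Cus-1. The lowest Cus-1 value minus the highest busulfan value had a median of 0.29 in log2 for mitotic genes, against -0.22 for all tested genes. For mitotic genes that was less than the 0.44 between the busulfan libraries. Without busulfan 1 the median log2 fold change was 0.43 for mitotic and 0.44 for meiotic genes, and without busulfan 2 these were 0.99 and 0.89.

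**Figure D4:**
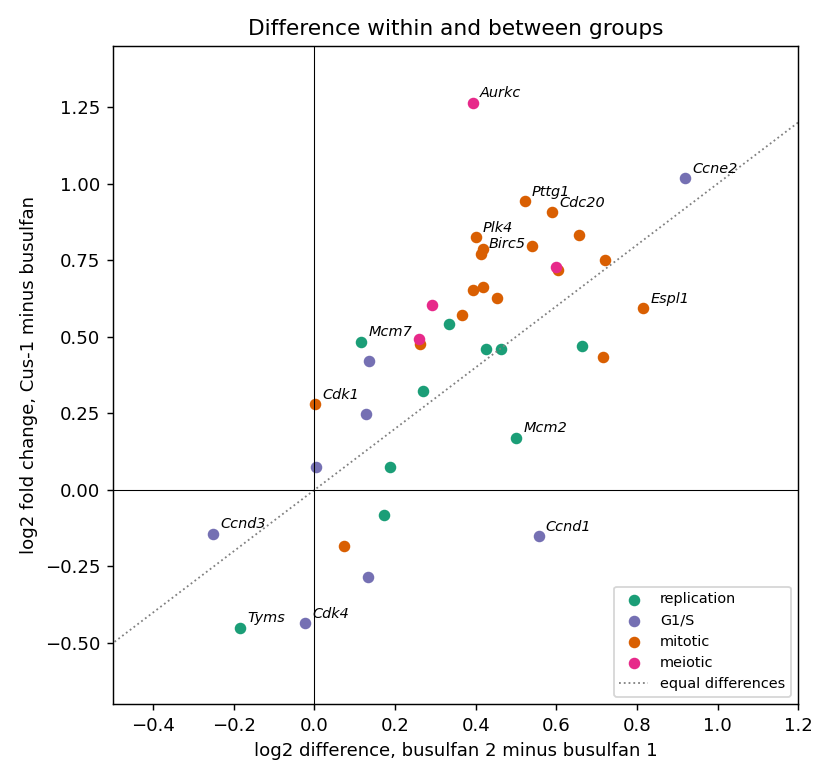
Log2 fold change of each gene (Cus-1 minus busulfan) against the log2 difference between the 2 busulfan libraries (busulfan 2 minus busulfan 1), both on log2(FPKM + 1) and both using the busulfan values; the dotted line marks equal differences. Most mitotic genes lie above the line, Aurkc farthest, while Espl1 and Mcm2 lie below it and Ccne2 close to it.

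The libraries held the markers of testis, and markers of germ cells and of somatic cells differed along with these genes. All 22 spermatocyte markers had a positive log2 fold change (median 0.89), 21 of them without overlap, and all 22 were higher in busulfan 2 than in busulfan 1. Their summed level was 1777 and 2676 FPKM in busulfan testes against 4307 and 3808 in treated testes, and that of the 18 mitotic genes was 406 and 557 against 856 and 727. All 23 Sertoli markers had a negative log2 fold change (median -0.71), 22 without overlap, with a summed level of 8705 and 6919 FPKM against 4350 and 5005. Markers of round spermatids (median 1.11, 18 of 18 positive) and of elongating spermatids (median 1.19, 16 of 16 positive) had larger differences still. The elongating spermatid markers summed to 3735 and 4032 FPKM in busulfan testes against 13779 and 5292 in treated testes, so Cus-1 1, in which most mitotic genes were highest, stood apart from the other 3 libraries. Markers of differentiating spermatogonia, the mitotic cells that precede meiosis, had a median of 0.54 over 14 genes, with 10 positive and 4 negative. That list includes Ccnd2, itself one of the 40, and Stra8, which is also listed below under meiotic cell cycle control. It also includes Dmrt1, which is among the Sertoli markers too. Of 14 markers of undifferentiated spermatogonia 9 were tested, with a median of -0.11. Their summed level was 59.8 and 54.7 FPKM against 45.8 and 50.5, and Nanos2, Nanos3, Utf1, Eomes and Pou5f1 were below the filter. Of the other somatic markers, 10 of 10 Leydig (7 without overlap), 13 of 13 peritubular and stromal (8) and 10 of 10 endothelial (8) were negative. So were 11 of 13 macrophage markers, with 2 positive, and 2 of 3 tested lymphocyte markers, with 1 positive. The part of cell mixture in the differences of the 40 genes was not tested.

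Within a library, the mitotic median minus the median of the spermatocyte markers was -0.09 and -0.22 in log2 with busulfan and -0.29 and -0.51 with Cus-1. For the replication genes that difference was -0.76 and -0.93 with busulfan and -1.57 and -1.497 with Cus-1. In both roles each Cus-1 library lay below each busulfan library on this measure. The same held for the G1/S genes, at -0.59 and -0.73 with busulfan and -1.03 and -1.11 with Cus-1. Relative to the median of the Sertoli markers, each role went the other way. Mitotic genes were there at -2.02 and -1.17 with busulfan and -0.07 and -0.39 with Cus-1. The meiotic median minus the spermatocyte median was -2.18 and -2.43 with busulfan and -2.17 and -2.47 with Cus-1, with overlap. After centring each library on spermatocyte markers, the median of all tested genes was -0.82, and 4 of the 40 genes (Aurkc, Cdc20, Pttg1 and Ccne2) had a positive log2 fold change.

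**Figure D5:**
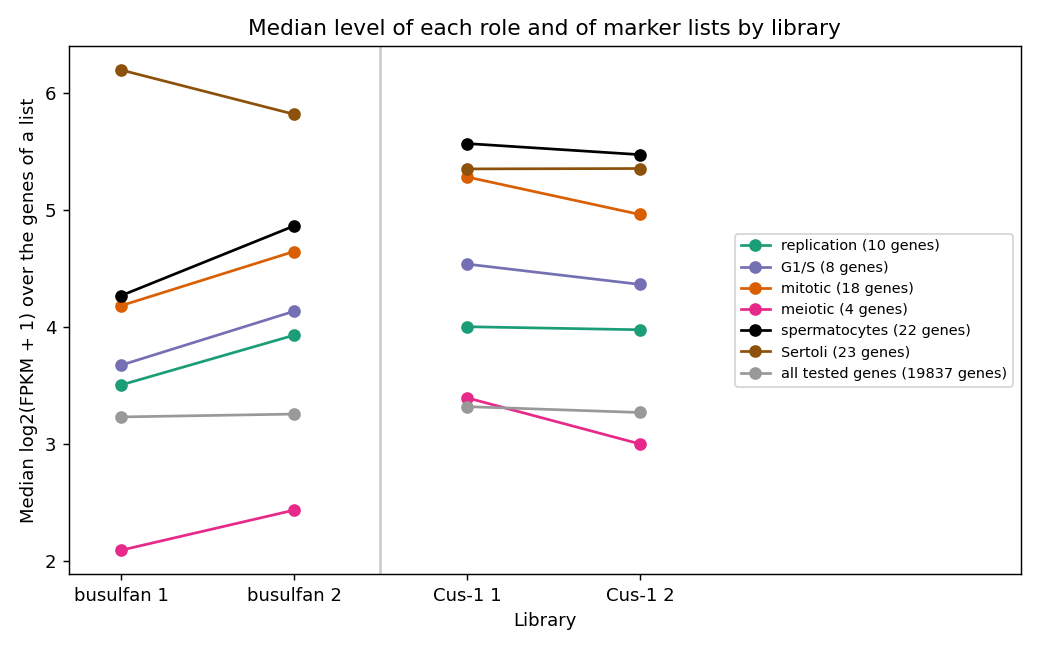
Median log2(FPKM + 1) over the genes of each role, of the spermatocyte and Sertoli markers and of all tested genes in each library; lines join the 2 libraries of a group. The mitotic median is 4.18 and 4.64 with busulfan and 5.28 and 4.96 with Cus-1, the spermatocyte median goes the same way, and the Sertoli median goes from 6.19 and 5.82 to 5.35 in both Cus-1 libraries.

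Other genes of the same pathway were taken from 7 lists with 126 genes. None of the 122 tested passed the limma adjusted threshold, and 45 were higher and 1 (Rpa3, log2 fold change -0.50, SE 0.16) lower at an unadjusted p under 0.05, against 18.0% and 9.96% of all tested genes. The counts without overlap that follow are to be read against 36.6% of all tested genes higher and 31.7% lower. All 17 tested kinetochore and checkpoint genes had a positive log2 fold change (median 0.62), 15 of them without overlap. The most abundant genes of that list were Cdca8, the borealin subunit that binds Aurkb and Birc5, at 27.1 and 35.5 against 58.7 and 50.3 FPKM, and the checkpoint gene Bub3 at 28.8 and 32.5 against 34.2 and 35.5 FPKM. Of 20 spindle and cytokinesis genes 15 were higher without overlap and 0 lower (median 0.61). Among these, Cks2, a small subunit of cyclin-dependent kinases, was at 83.7 and 125.45 against 176 and 171 FPKM, and Cdca3, a trigger of mitotic entry, at 41.6 and 55.3 against 103 and 77.8 FPKM.

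Licensing and replication fork genes had smaller medians, as the replication members did. The 20 genes of origin licensing and firing had a median of 0.31, with 14 higher and 2 lower without overlap. Gmnn, the geminin that blocks relicensing, was at 26.5 and 35.98 against 57.4 and 56.6 FPKM (log2 fold change 0.86, SE 0.19), and the GINS subunit gene Gins4 at 30.02 and 32.4 against 40.6 and 37.3. The 27 fork and nucleotide supply genes had a median of 0.34, with 18 higher and 4 lower without overlap. Rpa1, the large subunit of the single-strand binding protein RPA, was at 68.9 and 81.3 against 128.28 and 109 FPKM (log2 fold change 0.65, SE 0.17), and the clamp loader gene Rfc2 at 46.0 and 63.6 against 86.0 and 78.4.

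Of 8 inhibitors of cyclin-dependent kinases 3 were higher and 3 lower without overlap (median 0.29), near the shares of all tested genes (36.6% and 31.7%). Cdkn3, a phosphatase that acts on cyclin-dependent kinases, was at 53.2 and 73.1 against 135 and 98.0 FPKM, and Cdkn2c, an inhibitor of Cdk4, at 43.8 and 49.2 against 74.9 and 63.9 FPKM (log2 fold change 0.56, SE 0.16). The 14 tested pocket protein, E2F and related genes had a median of 0.18, with 7 higher and 5 lower without overlap, the lower share again near that of all tested genes. Foxm1, a transcription factor of G2 and M phase genes, was at 17.6 and 24.2 against 40.3 and 30.1 FPKM, and the pocket protein gene Rbl2 at 31.2 and 26.0 against 24.5 and 23.5. Genes of meiotic cell cycle control had the largest median of the 7 lists, 0.82 over 16 tested genes, 15 of them higher without overlap and 13 higher at an unadjusted p under 0.05. Hspa2, the chaperone that Cdk1 needs in spermatocytes, was at 161 and 226 against 428 and 316 FPKM, and the cohesin subunit gene Stag3 at 52.2 and 81.4 against 138 and 111 FPKM. Hspa2 is also among the spermatocyte markers above.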

How the data were processed

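The authors deposited 1 table of FPKM for 4 libraries, with 2 decimals. FPKM counts the fragments on a gene per kilobase of its length and per M (1e+06) fragments mapped. Per the submitters' processing notes, the genome build was mm10. Which aligner, counter, annotation and strand setting were used is not given in the sources used here, and for 19 of the 40 genes whose span holds bases of another annotated gene (GENCODE M21), Mcm7, Cdk4, Ccne2, Ccna2 and Cdc20 among them, fragments of the neighbour cannot be told apart. Columns were matched to samples by library name and groups taken from the source label. Replicates were numbered in order of submission and pair nothing. Of 45536 rows with values, 910 had a dash for a name (0.641% to 0.688% of a library's summed FPKM) and were left out, and of 115 repeated symbols the row with the highest mean was kept.

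Genes that reached 1 FPKM in 2 or more of the 4 libraries were tested (19837) with limma 3.58.1 in R 4.3.3, two-sided, with empirical Bayes and a mean-variance trend on log2(FPKM + 1), a scale that understates the change of low genes. P-values were adjusted by Benjamini-Hochberg over all tested genes. The fit was tested on simulated data. Summed FPKM was 726041 to 742689 per library. The first step in FPKM times length of genes with 1 annotated transcript corresponds to between 12.2 and 13.9 M fragments per library, if that step is 1 fragment. Alternatives were a pseudocount of 0.1, no filter and a filter at 5 FPKM, quantile normalization, centring on Sertoli or on spermatocyte markers, no trend, and leaving out each library, and for ratios between relatives no pseudocount, added after seeing the data. The lone library of a group is then assumed to vary like the others. All 40 genes are named, and of the other pathway lists the 2 most abundant tested genes, while marker lists are given by counts, medians and sums. Rpa3 and the genes below the filter were named after their values were seen. The genes and lists were chosen with earlier results of these data known.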

Additional observations from a re-analysis of the deposited data

How the results depend on the processing

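With 2 libraries against 2, no gene of the 40 passed the adjusted limma threshold as reported, and none did with any 1 library left out. A pseudocount of 0.1 and quantile normalization turned the sign of none of the 40. A filter or trend cannot move a log2 fold change, and the 5 FPKM filter left 33 of the 40. No paired analysis was possible because the labels give the groups no shared replicate numbers. Fragments per gene are not given, so the limit that depth sets was not computed for each gene.

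With a 5 FPKM filter 2 genes were lower without overlap (4 as reported), the meiotic median was 0.997 over the genes left and the median of all tested genes -0.0056, which was -0.0603 with quantile normalization. Without a trend 0 genes were lower at an unadjusted p under 0.05. The Ccnb3 to Ccnb1 difference was 0.12 with a pseudocount of 0.1 and 0.17 with none.

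Centring adds 1 constant per library, which moved the median of all tested genes to 0.71 on Sertoli and -0.82 on spermatocyte markers. On Sertoli markers 33 of the 40 were higher and 0 lower at an unadjusted p under 0.05, against 9453 and 69 of all genes. Counts without overlap were not made over all genes under either centring and are not given. The medians were 1.06 for replication, 0.63 for G1/S, 1.36 for mitotic and 1.33 for meiotic genes, and the sign turned in Mcm4 (0.59), Tyms (0.22), Ccnd1 (0.52), Ccnd2 (0.38), Ccnd3 (0.53), Cdk4 (0.23) and Cdc25b (0.49). On spermatocyte markers the medians were -0.47, -0.90, -0.17 and -0.20. Then 1 of the 40 (Cdk4, -1.30, limma adjusted p = 0.0280) and 4407 of all genes were called by limma. At an unadjusted p under 0.05, 0 of the 40 were higher and 4 lower, against 59 and 8018 of all genes. Without overlap, 2 of the 40 were higher and 25 lower. There the sign turned in 29 genes: Mcm2 (-0.69), Mcm3 (-0.79), Mcm5 (-0.39), Mcm6 (-0.54), Mcm7 (-0.38), Pcna (-0.40), Rrm1 (-0.32), Rrm2 (-0.40), Ccne1 (-0.44), Cdk2 (-0.62), Cdc25a (-0.79), Mki67 (-0.15), Top2a (-0.0310), Cdk1 (-0.58), Ccna2 (-0.43), Ccnb1 (-0.24), Ccnb2 (-0.0676), Plk1 (-0.20), Plk4 (-0.0386), Aurka (-0.21), Aurkb (-0.29), Birc5 (-0.0920), Bub1 (-0.11), Bub1b (-0.0786), Ube2c (-0.39), Espl1 (-0.27), Ccna1 (-0.13), Ccnb3 (-0.37) and Cdc25c (-0.26).

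With 1 library left out, 3 to 19 of the 40 were higher and 0 lower at an unadjusted p under 0.05, and 28 to 32 were higher and 4 to 8 lower without overlap, fewer values making overlap rarer. Over all genes 0 to 7 were called by limma, 1159 to 3821 were higher and 426 to 1996 lower. The shares of all tested genes without overlap are not given for these fits. The counts without overlap for the 40 therefore cannot be read against 36.6% and 31.7%, which hold with every library kept. Medians ran from 0.16 to 0.50 for replication, -0.15 to 0.18 for G1/S, 0.43 to 0.99 for mitotic, 0.44 to 0.89 for meiotic and 0.03 to 0.06 for all tested genes. The sign turned in some of these for Mcm2 (-0.0802 to 0.42), Mcm3 (-0.0179 to 0.17), Mcm4 (-0.17 to 0.0061), Ccnd1 (-0.43 to 0.13), Ccnd3 (-0.44 to 0.15), Cdc25a (-0.0594 to 0.21) and the Ccnb3 to Ccnb1 difference (-0.35 to 0.0790).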
